A study of Mus musculus with 21 samples.

Results

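The ISG15 conjugation pathway, the Mx GTPase genes and other antiviral effectors were described in mouse bone marrow-derived macrophages, through 10 genes: Isg15, Usp18, Herc6, Ube2l6, Uba7, Rsad2, Mx1, Mx2, Ifi44 and Bst2. They were chosen by name out of 50645 genes in a table on fatty acid treatment and 50644 in a table on Western diet. Both tables gave 9 of the 10 by symbol, and Mx1, whose symbol cell is empty, was found by its gene ID. All 10 passed the filter on low values in both tables.

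Interferons released after a macrophage senses bacterial lipopolysaccharide (LPS) or viral nucleic acid act back on their receptor, and STAT and IRF factors then switch on antiviral genes. ISG15 is a small ubiquitin-like protein that a chain of E1, E2 and E3 enzymes attaches to other proteins and that a protease removes again. The Mx proteins, viperin and tetherin each block a step in viral replication or release. Toll-like receptor 4 (TLR4), which senses LPS, can start this programme in macrophages without a virus.

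Marrow came from C57Bl6/J donors, and the labels give 24 weeks both as the donors' age and as the time on either diet. Cells were grown in RPMI-1640 with L929 cell supernatant, a usual source of macrophage growth factor, for 7 days. The fatty acid table held 4 groups of chow-fed donors with 3 libraries each: fatty acid with TAK242 and then LPS, fatty acid and then LPS, LPS alone, and untreated cells. Fatty acid was 10 mM palmitic and oleic acid at 1:3 for the first 4 days, TAK242 (an inhibitor of TLR4) was given with it at 200 nM, cells were then washed, and LPS from E. coli followed at 100 ng/ml for 24 h. The Western diet table held 3 groups of 3: Western diet (a feed high in fat, sugar and cholesterol) with LPS by label, Western diet without LPS by label, and untreated cells of chow-fed donors, replicates 4 to 6. No group had fatty acid without LPS, TAK242 without fatty acid, or chow cells with LPS inside the Western diet table. Replicate numbers are not said to stand for animals or for cultures, so p-values measure the spread between these samples, which may be technical.

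Values are the deposited expression values, whose unit is not named, and library sums ran from 321532 to 386023 in this unit. Read depth is unknown. The summed level of 7 macrophage markers was 8730 to 10800 in the fatty acid table and 5790 to 15400 in the Western diet table. Lyz2 made up most of it, and some markers were far lower, such as Fcgr1 at 10.5 to 11.1 in untreated libraries of the fatty acid table. All 4 markers of T and B cells together reached at most 0.117 and 0.183 in the 2 tables. Among the 6 Western diet libraries, 4 went against their LPS label. Over 1963 genes that respond to LPS in chow macrophages, leaving out the 10 genes and all gene lists used here, each library's slope on the chow LPS response was -0.11, -0.09 and 0.73 in libraries labelled with LPS (replicates 1, 2 and 3) and 0.99, 0.06 and 1.01 in those labelled without LPS. The slope is near 0 for no LPS response and near 1 for a full one, with 0.5 as the dividing value. The chemokine gene Ccl5, which LPS induces, stood at 0.463, 10.5 and 6905 in the libraries labelled with LPS and at 7846, 13.7 and 10970 in those labelled without.

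Promoter windows are printed because the interferon-stimulated response element that STAT and IRF factors bind is a repeat of GAAA. They are those of Isg15 and, among members with a window, of the ones that changed most or least in the fatty acid comparison below. RefSeq promoter tables (GRCm38.p6) held 7 of the 10 genes. Usp18, Mx1 and Mx2 were not among them, so Mx1, which changed most in that comparison, was not searched. The 250 bases before each gene's start were searched on both strands for GAAANNGAAA and for GAAANNNGAAA, in which N is any base. Capitals mark matches. Isg15 (chr4:156200819-156201068, minus strand) had 3 overlapping matches, Bst2 (chr8:71537473-71537722, minus strand) had 2 overlapping ones, Rsad2 (chr12:26456453-26456702, minus strand) had 1 match to each spelling, and Ube2l6 (chr2:84798578-84798827, plus strand) had 0.
Isg15: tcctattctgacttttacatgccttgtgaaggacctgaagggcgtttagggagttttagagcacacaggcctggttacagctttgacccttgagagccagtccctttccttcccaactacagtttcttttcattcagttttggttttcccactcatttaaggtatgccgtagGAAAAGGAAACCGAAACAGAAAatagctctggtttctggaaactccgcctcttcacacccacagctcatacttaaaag
Rsad2: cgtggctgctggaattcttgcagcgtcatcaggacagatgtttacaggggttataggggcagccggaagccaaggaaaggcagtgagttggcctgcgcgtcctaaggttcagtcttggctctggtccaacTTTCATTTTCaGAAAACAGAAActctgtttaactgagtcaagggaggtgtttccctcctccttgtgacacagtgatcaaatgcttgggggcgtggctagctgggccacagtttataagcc
Bst2: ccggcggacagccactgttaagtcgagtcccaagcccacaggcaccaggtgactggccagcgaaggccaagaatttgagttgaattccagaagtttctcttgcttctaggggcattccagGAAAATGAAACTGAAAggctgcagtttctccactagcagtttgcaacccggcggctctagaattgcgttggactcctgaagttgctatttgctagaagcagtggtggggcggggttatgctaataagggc
Ube2l6: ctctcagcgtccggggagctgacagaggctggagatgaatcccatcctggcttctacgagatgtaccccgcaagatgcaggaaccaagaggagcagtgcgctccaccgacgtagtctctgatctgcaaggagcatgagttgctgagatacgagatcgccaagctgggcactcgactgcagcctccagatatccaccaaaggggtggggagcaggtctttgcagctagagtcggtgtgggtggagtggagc
The Isg15 run lies 78 to 57 bases before the start, and the first spelling was found in 3 of the 7 members' windows and in 2.98% of all 32851 windows. The second spelling was found in 2 of the 7, Rsad2 and Ifi44, and in 2.38% of all windows. A STAT-type palindrome, TTCNNNGAA, was found in 1 of the 7, Bst2, and in 7.02% of all. No full match to these motifs was found in the windows of Herc6, Uba7 or Ube2l6, which says nothing of sites elsewhere. A match describes the sequence and shows no binding. The motifs were chosen after the members' values were seen.

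LPS alone against untreated chow cells asks how far the pathway is induced. All 10 members rose, against 13.8% of the 10476 genes tested. Changes below are log2 changes from limma on log2(value + 1), a scale that understates changes of genes with low values, and adjusted p is Benjamini-Hochberg over all genes tested, called under 0.05. The members' changes ran from 1.73 to 6.35 with a median of 3.65, beside a median of -0.31 over all genes. In all 10 members the groups did not overlap, as in 15% of all genes in that direction.

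The ISG15 modifier and the enzymes around it span much of that range. Isg15 (chromosome 4, 156199424 to 156200818, minus strand) had values of 117, 245 and 342 in the LPS libraries, against 1.95, 1.63 and 1.36 in untreated libraries. Its change was 6.35 with a standard error of 0.30 (adjusted p = 1.95e-08). Usp18 (chromosome 6, 121245906 to 121270917), the protease that removes ISG15 and also damps the interferon receptor, had 58.1, 119 and 141 in LPS libraries, against 0.655, 0.834 and 0.399 in untreated libraries, a change of 5.95 (adjusted p = 1.94e-08). In both genes the LPS libraries lay far above every untreated one, and replicate 1 was the lowest of them.

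The conjugating enzymes already had clear values without LPS and rose less. Uba7, the E1 that activates ISG15, had 22.7, 56.7 and 69.3 in LPS libraries, against 12, 12.6 and 14.0 in untreated libraries, a change of 1.73 (adjusted p = 0.000533). Ube2l6, the E2 that carries it, had 32.6, 61.0 and 65.8 in LPS libraries, against 10.3, 8.86 and 8.43 in untreated libraries, a change of 2.35 (adjusted p = 3.62e-06). Herc6, the main E3 ligase for ISG15 in mouse, had 23.8, 38.0 and 44.5 in LPS libraries, against 4.84, 5.11 and 5.17 in untreated libraries. Its change was 2.55 (adjusted p = 1.43e-06), but Herc6 shares 1269 of its 9292 exon bases with the same-strand transcript Gm45193, which reached 109 in the fatty acid table, so its values are uncertain. Smaller overlaps are annotated for Uba7 with Gm20661 (233 of 6692 bases, same strand) and Usp18 with Gm44148 (124 of 2790 bases, opposite strand), and whether counting used strand is not stated.

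Among the effectors, 4 were close to 0 without LPS. Mx1 (chromosome 16, 97447035 to 97462907, minus strand) had 11.2, 31.1 and 52.9 in LPS libraries, against 0.077, 0.134 and 0.16 in untreated libraries, a change of 4.62 (adjusted p = 4.39e-06). Mx1 and Mx2 encode dynamin-like GTPases that trap viral components, Mx1 in the nucleus and Mx2 in the cytoplasm in mouse. RefSeq annotates both as transcribed pseudogenes in this C57BL/6J assembly, while GENCODE M21 lists Mx1 as protein-coding and Mx2 as a polymorphic pseudogene, so the values are of transcripts and say nothing of a working protein. Mx2 had 7.05, 14.0 and 19.4 in LPS libraries, against 0.201, 0.139 and 0.254 in untreated libraries (3.50, adjusted p = 1.04e-06).

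Rsad2 (chromosome 12, 26442753 to 26456452, minus strand) encodes viperin, which makes a chain-terminating nucleotide from CTP. It had 12.3, 26.9 and 53.2 in LPS libraries, against 0.402, 0.422 and 0.447 in untreated libraries (4.25, adjusted p = 6.01e-06). Ifi44, an interferon-induced gene, had 6.66, 13.2 and 24.7 in LPS libraries and was listed at 0.0203, 0 and 0 in untreated libraries, so no fold is given (3.81 on the log2(value + 1) scale, adjusted p = 2.86e-06). Bst2, the gene of tetherin, which holds budding virus particles at the cell surface, had 628, 1106 and 1121 in LPS libraries, against 132, 122 and 122 in untreated libraries (2.86, adjusted p = 3.60e-07). Replicate 1 of the LPS group was the lowest of its group in all 10 members.

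The same replicate held the highest summed level of neutrophil markers (8 genes, 5 tested), which stood at 384, 171 and 120 in LPS libraries, against 48.6, 35.0 and 51.9 in untreated libraries, with Ly6g at 0 in all 3 LPS libraries. That sum is mostly S100a8, at 372, 115 and 78.1 in LPS libraries, and Camp was also highest in replicate 1, while S100a9 (5.70, 43.5 and 32.0), Ngp (0.698, 6.27 and 4.24) and Ltf (0.467, 3.21 and 2.83) were lowest in it. It also held the highest sum of stromal markers (8 genes, 5 tested), at 54.8, 30.4 and 24.9 in LPS libraries, against 7.85, 15.8 and 13.7 in untreated libraries, with Lum at 0 in both groups. The stromal marker Dcn was instead lowest in replicate 1, at 0.0606, 0.6855 and 0.835 in LPS libraries. Of these markers 2 neutrophil ones (S100a8 and Camp) and 5 stromal ones passed the test upward. For plasmacytoid dendritic cells, strong interferon producers, 7 markers summed to 6.16 to 12.2 in LPS libraries and 6.69 to 10.4 in untreated ones. That sum is mostly Tcf4, at 5.25, 7.81 and 9.48 in LPS libraries and 5.57, 7.84 and 9.46 in untreated libraries. Apart from Tcf4 and Cox6a2 no marker of the 7 reached 1 in either group, and Siglech and Ly6d were at 0 in both. The part of these markers in the members' values was not tested. In bulk libraries fewer cells of a type and less RNA per cell cannot be told apart.

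Other antiviral genes induced by interferon were listed with earlier results of these data known, and 24 of 26 rose and 1 fell with LPS. Zbp1, a sensor of Z-form nucleic acid, averaged 145 in LPS libraries and 1.38 in untreated libraries (5.90, adjusted p = 7.67e-10). Oasl1, of the oligoadenylate synthase family, averaged 68.7 and 0.0905 in the same groups (5.99, adjusted p = 1.91e-09), and Oas2 12.6 and 0.614 (3.06, adjusted p = 2.46e-08). Of 10 tested genes of the interferon receptor, its kinases and the STAT and IRF factors, 7 rose and 0 fell, among them Irf7 (6.87, adjusted p = 3.48e-09) and Irf9 (1.29, adjusted p = 1.39e-06). The interferon gene Ifnb1 was listed at 0 in all 12 libraries of this table.

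**Figure D1:**
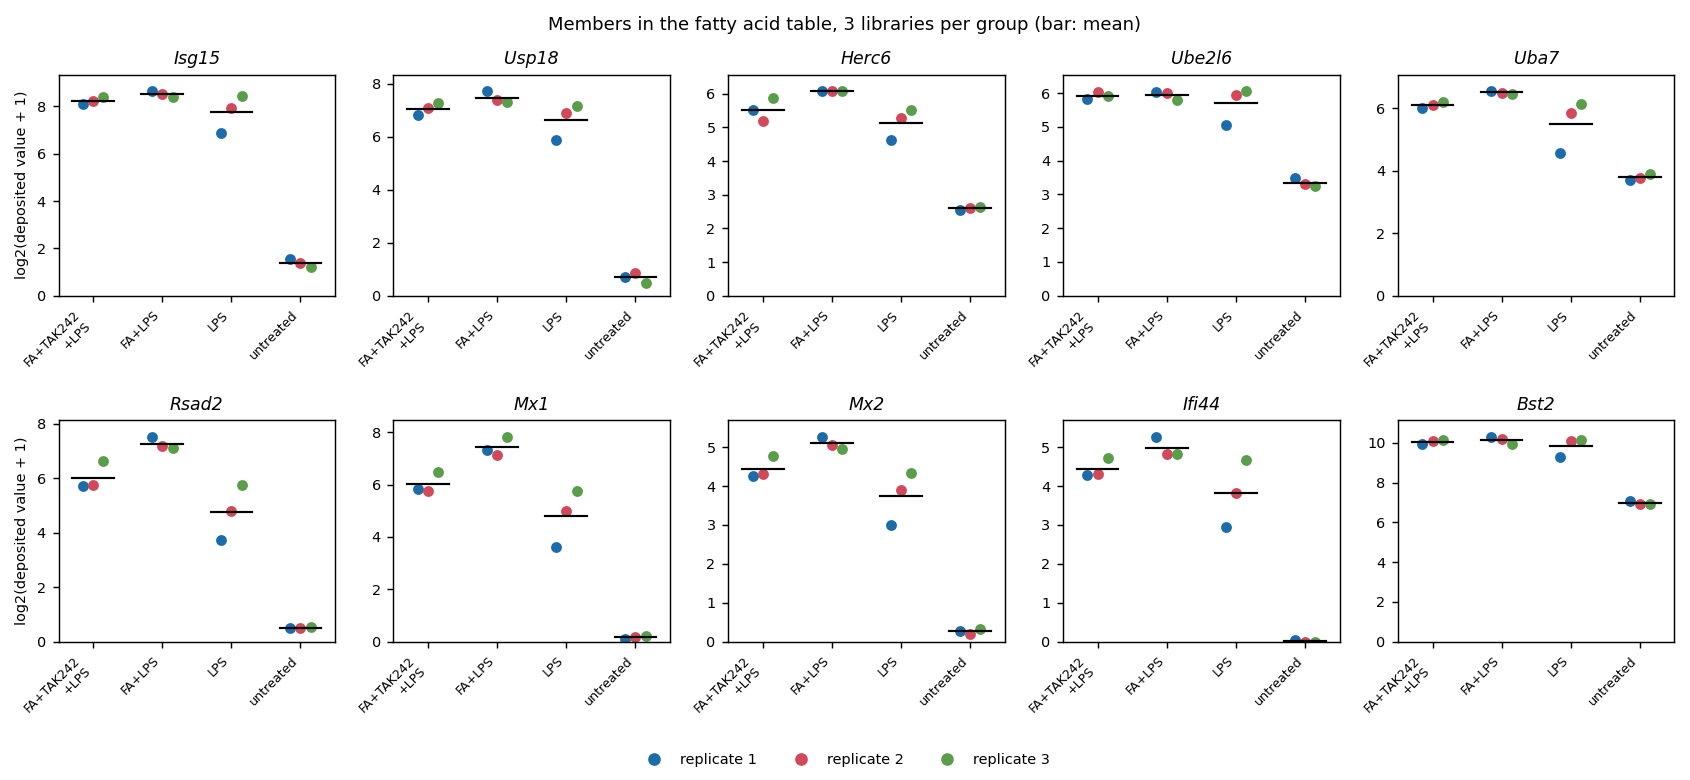
Each panel plots log2(deposited value + 1) of a member in the 12 libraries of the fatty acid table, with 3 points per group coloured by replicate number and a bar at their mean (FA, fatty acid). Untreated libraries lie lowest in all 10 panels, and replicate 1 is the lowest point of the LPS group in each.

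Fatty acid before LPS, set against LPS alone, raised 7 of the 10 members and lowered 0, against 21.8% of all genes tested raised. The largest changes were those of Mx1 and Rsad2, which were 5.52 and 5.02 times as high by their means. Isg15, Ube2l6 and Bst2 did not pass the test. The members' median change was 0.97, beside 0.06 over all genes. No group had fatty acid alone, so an effect on the LPS response and a direct effect of fatty acid cannot be told apart.

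Mx1 had 159, 139 and 227 in fatty acid libraries, against 11.2, 31.1 and 52.9 in LPS libraries, means of 175 ± 46.0 and 31.7 ± 20.9 (SD, n = 3 each). The lowest fatty acid library was well above the highest LPS library, and the change was 2.64 with a standard error of 0.43 (adjusted p = 0.00157). Rsad2 had 183, 145 and 136 in fatty acid libraries, against 12.3, 26.9 and 53.2 in LPS libraries, means of 155 ± 24.6 and 30.8 ± 20.7 (2.51, standard error 0.41, adjusted p = 0.00163). Among all 10476 genes these changes ranked 35 and 42 by size. Without LPS replicate 1 the changes were 2.05 for Mx1 and 1.99 for Rsad2 (adjusted p = 0.00107 and 0.00199).

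Mx2 had 37.7, 32.6 and 30.2 in fatty acid libraries, against 7.05, 14.0 and 19.4 in LPS libraries (1.35, standard error 0.27, adjusted p = 0.00399). Ifi44 had 37.7, 27.5 and 27.2 in fatty acid libraries, against 6.66, 13.2 and 24.7 in LPS libraries (1.16, standard error 0.34, adjusted p = 0.0212). Neither gene's groups overlapped, although the highest LPS library of Ifi44 came close to the lowest fatty acid one. Cmpk2, a nucleotide kinase gene named after its values were seen because it lies beside Rsad2, had 76.0, 60.9 and 56.7 in fatty acid libraries and 5.38, 15.4 and 26.9 in LPS libraries (2.19, adjusted p = 0.00333).

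In the ISG15 pathway, the ligase and the E1 were raised and the modifier and its E2 were not called. Herc6 had 66.8, 66.3 and 66.8 in fatty acid libraries, against 23.8, 38.0 and 44.5 in LPS libraries (0.94, standard error 0.21, adjusted p = 0.00604), and the overlapping Gm45193 had 110, 101 and 97.3 in fatty acid libraries and 35.4, 56.8 and 66.5 in LPS libraries. Uba7 had 93.5, 89.5 and 88.0 in fatty acid libraries, against 22.7, 56.7 and 69.3 in LPS libraries (1.00, standard error 0.31, adjusted p = 0.0259). Usp18 had 212, 166 and 158 in fatty acid libraries, against 58.1, 119 and 141 in LPS libraries (0.83, standard error 0.28, adjusted p = 0.0375). The groups of these 3 genes did not overlap, and 7 members in all had fatty acid libraries above every LPS library, as did 29.8% of all genes.

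Isg15 had 402, 366 and 338 in fatty acid libraries, against 117, 245 and 342 in LPS libraries. The lowest fatty acid library lay just below the highest LPS library, and the change of 0.78, with a 95% interval of 0.12 to 1.43, did not pass (adjusted p = 0.0615). Ube2l6 had 64.6, 63.2 and 54.1 in fatty acid libraries, against 32.6, 61.0 and 65.8 in LPS libraries, a difference of 0.25 with an interval of -0.23 to 0.72 (adjusted p = 0.39). Bst2 had 1273, 1160 and 977 in fatty acid libraries, against 628, 1106 and 1121 in LPS libraries, a difference of 0.30 with an interval of -0.14 to 0.73 (adjusted p = 0.255). In Ube2l6 and Bst2 replicates 2 and 3 of the LPS group reached the level of fatty acid libraries, and in Isg15 replicate 3 alone did.

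The calls of Herc6, Rsad2, Mx1 and Mx2 held with each of the 6 libraries compared left out in turn, while those of Usp18, Uba7 and Ifi44 did not. Without LPS replicate 1 the change of Usp18 was 0.45 (adjusted p = 0.0752), that of Uba7 0.52 (adjusted p = 0.00545) and that of Ifi44 0.72 (adjusted p = 0.0428). The call of Ifi44 was lost without LPS replicate 2 (adjusted p = 0.0501), and 4 members remained called without fatty acid replicate 1. Usp18 lost its call without fatty acid replicate 1, 2 or 3 (adjusted p = 0.117, 0.07 and 0.0586) and Uba7 likewise (adjusted p = 0.0651, 0.0626 and 0.0595), and Ifi44 lost its call without fatty acid replicate 1 (adjusted p = 0.0711). With a pseudocount of 0.1, Usp18 lost its call (adjusted p = 0.0591). Without LPS replicate 3, Isg15 was called at 1.11 (adjusted p = 0.00669).

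**Figure D2:**
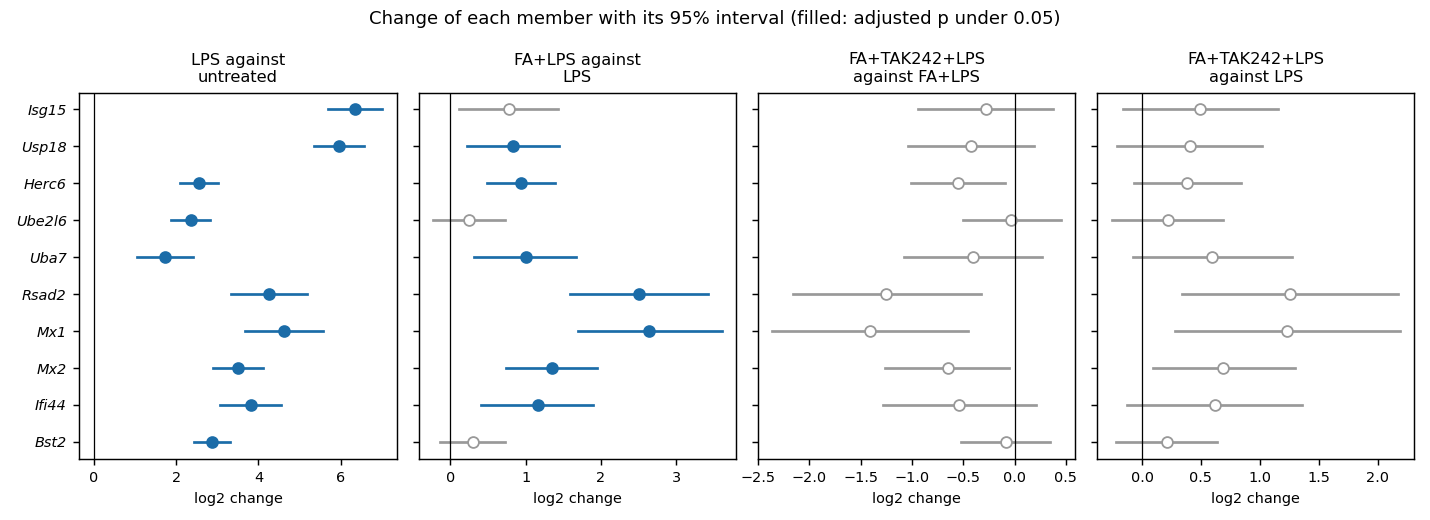
Points are log2 changes of each member in 4 comparisons, with lines for 95% intervals from limma and filled points for an adjusted p under 0.05 (FA, fatty acid). All 10 points are filled for LPS, 7 for fatty acid before LPS, and 0 in either TAK242 panel, and Mx1 and Rsad2 lie furthest from 0 in the fatty acid panel; the horizontal scales differ between panels.

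Other antiviral genes moved alongside: 17 of 26 rose with fatty acid and 0 fell, with a median change of 0.70 over the list. Ifit2, which binds viral RNA, averaged 49.5 in fatty acid libraries and 7.37 in LPS libraries (2.84, adjusted p = 0.000801). Eif2ak2, the gene of the RNA-activated kinase PKR, averaged 36.8 and 19.3 (0.90, adjusted p = 9.28e-05), and the ubiquitin ligase gene Dtx3l 12.3 and 6.04 (0.92, adjusted p = 0.000871). Of the 10 signalling genes 4 rose and 0 fell, among them the receptor gene Ifnar1 (0.47, adjusted p = 0.0023) and Stat2 (0.99, adjusted p = 0.0128). Summed neutrophil markers stood at 79.8 to 90.2 in fatty acid libraries and 120 to 384 in LPS libraries, with 2 of 5 lower by the test and none at 0 in all 3 fatty acid libraries. Summed stromal markers stood at 9.31 to 12.6 and 24.9 to 54.8 in the same groups, with 4 of 5 lower and Lum and Thy1 at 0 in fatty acid libraries. Dcn went the other way without a call, at 1.24, 0.838 and 1.16 in fatty acid libraries and 0.0606, 0.6855 and 0.835 in LPS libraries. The part of these markers in the members' changes was not tested.

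Within a library, the ratio of each member to Isg15 shows how the make-up of the group differed, and ratios were chosen after the values were seen. Mx1 stood at 0.396, 0.380 and 0.671 of Isg15 in fatty acid libraries, against 0.0953, 0.127 and 0.155 in LPS libraries. Rsad2 stood at 0.454, 0.396 and 0.403 in fatty acid libraries, against 0.104, 0.11 and 0.156 in LPS libraries. Ube2l6 went the other way, at 0.161, 0.173 and 0.16 in fatty acid libraries, against 0.277, 0.249 and 0.193 in LPS libraries. None of these groups overlapped, and the ratio of Usp18 to Isg15, with means of 0.482 in fatty acid libraries and 0.464 in LPS libraries, did overlap. A two-sided exact permutation test of 3 against 3 cannot go below p = 0.1, which these 3 ratios reached (adjusted p = 0.138 over 18 tests), so none passes.

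TAK242 with fatty acid, set against fatty acid alone (both before LPS), asks whether blocking TLR4 during pretreatment alters the pathway. No member passed the test with limma (adjusted p from 0.0902 to 0.957), against 4.69% of all genes called, and 4 (Herc6, Rsad2, Mx1 and Mx2) had an unadjusted p under 0.05, as did 23.1% of all genes. All 10 changes were below 0, between -1.41 and -0.03, with a median of -0.48 beside 0 over all genes. In 8 members every TAK242 library was below every fatty acid library, as in 18.7% of all genes. TAK242 was not given without fatty acid, so an effect on the fatty acid change and one on the later LPS response cannot be told apart.

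Mx1 had 55.6, 53.5 and 88.0 in TAK242 libraries, against 159, 139 and 227 in fatty acid libraries. The groups were well apart, and the difference was -1.41 with an interval of -2.36 to -0.45 (adjusted p = 0.0902). Rsad2 had 51.5, 52.2 and 97.3 in TAK242 libraries, against 183, 145 and 136 in fatty acid libraries, a difference of -1.25 with an interval of -2.16 to -0.33 (adjusted p = 0.109). Mx2 had 18.3, 18.8 and 26.2 in TAK242 libraries, against 37.7, 32.6 and 30.2 in fatty acid libraries (-0.65, adjusted p = 0.186). Ifi44 had 18.5, 18.9 and 25.2 in TAK242 libraries, against 37.7, 27.5 and 27.2 in fatty acid libraries (-0.54, adjusted p = 0.369). In all 4, TAK242 replicate 3 was the highest of its group.

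Herc6 had 44.5, 35.9 and 57.5 in TAK242 libraries, against 66.8, 66.3 and 66.8 in fatty acid libraries (-0.55, adjusted p = 0.147). Uba7 had 63.3, 68.2 and 72.8 in TAK242 libraries, against 93.5, 89.5 and 88.0 in fatty acid libraries (-0.40, adjusted p = 0.459). Isg15 had 271, 302 and 337 in TAK242 libraries, against 402, 366 and 338 in fatty acid libraries (-0.28, adjusted p = 0.60), so that the nearest libraries of the groups were about level. Usp18 had 111, 135 and 153 in TAK242 libraries, against 212, 166 and 158 in fatty acid libraries (-0.42, adjusted p = 0.392). Ube2l6 and Bst2 overlapped, at -0.03 (interval -0.50 to 0.45) and -0.08 (interval -0.52 to 0.35).

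The spread used in this test came from all 12 libraries, in which the LPS group is the most spread for Mx1 and Rsad2 on the log2 scale. With the 6 libraries compared as the whole fit, 4 members passed as lower: Mx1 (adjusted p = 0.0262), Uba7 (adjusted p = 0.0292), Rsad2 (adjusted p = 0.0375) and Mx2 (adjusted p = 0.047). In that fit 10.6% of all genes were called, and 4.6% of all genes were called lower. The limma calls that follow are from the fit over all 12 libraries, where 1.68% of all genes were called lower. Among the 26 other antiviral genes 1 fell in it, Oas2, at 14.8 in TAK242 libraries and 23.5 in fatty acid libraries (-0.64, adjusted p = 0.0379). No signalling gene of 10 passed in either direction. Summed stromal markers stood at 20.3 to 24.7 in TAK242 libraries and 9.31 to 12.6 in fatty acid libraries, with Col1a1 (1.57, adjusted p = 0.0204) and Col1a2 (1.59, adjusted p = 0.0315) higher among 5 tested and none of the 8 at 0 in all TAK242 libraries. Neutrophil markers summed to 65.1 to 88.8 and 79.8 to 90.2 in the same groups, with 0 of 5 called and Elane at 0 in TAK242 libraries. The part of these markers in the members' values was not tested. The ratio of Mx1 to Isg15 was 0.205, 0.177 and 0.262 in TAK242 libraries, against 0.396, 0.380 and 0.671 in fatty acid libraries, without overlap (exact permutation p = 0.1, the smallest possible, adjusted p = 0.138).

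**Figure D3:**
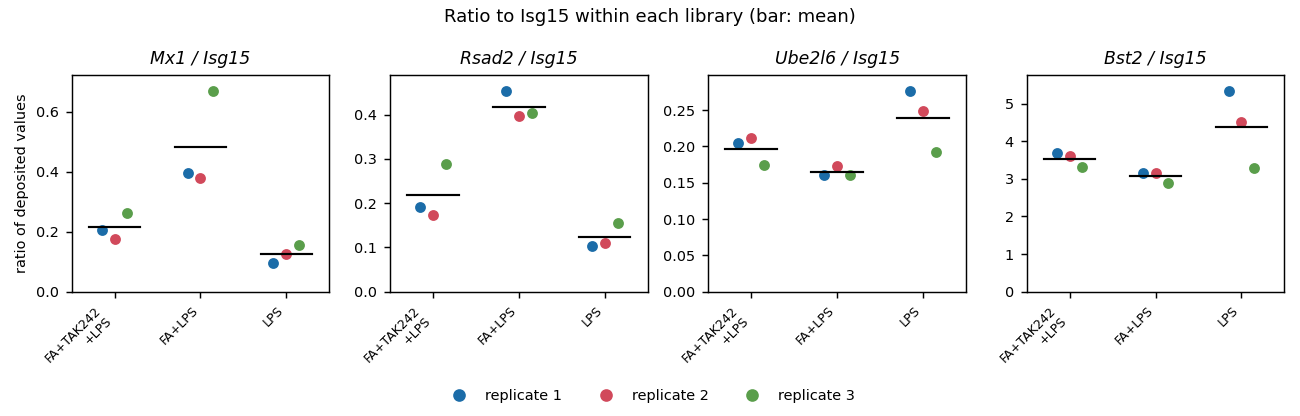
Points are the deposited value of Mx1, Rsad2, Ube2l6 or Bst2 divided by that of Isg15 in the same library, in 3 groups of 3 libraries coloured by replicate number, with bars at means (FA, fatty acid). For Mx1 and Rsad2 the fatty acid libraries lie above all libraries of the other groups, and for Ube2l6 and Bst2 they lie below them.

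Fatty acid with TAK242 was also set against LPS alone, a comparison that shares libraries with both of those above. Here 0 members passed with limma, against 5.89% of all genes called, and 3 had an unadjusted p under 0.05, as did 29.8% of all genes. The largest differences were Rsad2 at 1.26 (interval 0.34 to 2.17, adjusted p = 0.0832), Mx1 at 1.23 (interval 0.28 to 2.19, adjusted p = 0.0958) and Mx2 at 0.69 (interval 0.09 to 1.30, adjusted p = 0.125). For Mx1 the TAK242 libraries (55.6, 53.5 and 88.0) lay just above the LPS libraries (11.2, 31.1 and 52.9), which 22.4% of all genes also did, and the other 9 members overlapped. LPS replicate 3 decides this count: without it Isg15, Rsad2, Mx1, Mx2 and Ifi44 passed as higher, at 0.83, 1.76, 1.72, 0.99 and 1.05 (adjusted p = 0.0490, 0.0118, 0.0166, 0.0236 and 0.0215), where 17% of all genes were called and 11.4% were higher. Without LPS replicate 1, Rsad2 was at 0.74 and Mx1 at 0.64 (adjusted p = 0.191 and 0.20).

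Against untreated cells all 10 members were higher in both pretreated groups, where 14.1% of all genes were higher with TAK242 and 15.2% with fatty acid alone. The changes ran from 2.32 to 6.85 with TAK242 and from 2.60 to 7.26 with fatty acid alone. With TAK242 the largest was that of Isg15, and with fatty acid alone it was Mx1. These comparisons share the untreated libraries with that of LPS alone, where Isg15 was also the largest on the log2(value + 1) scale. By the ratio of means, Mx1 and Usp18 rose more than Isg15 with LPS alone (257, 168 and 143 times). The same held with TAK242 (531, 211 and 184 times).

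In the Western diet table the members followed the slopes of the label check and not the labels. Isg15 had 1.47, 2.99 and 344 in replicates 1, 2 and 3 labelled Western diet with LPS, 808, 3.83 and 754 in replicates 1, 2 and 3 labelled Western diet without LPS, and 3.10, 4.19 and 3.33 in chow libraries. Mx1 had 0.144, 0.176 and 85.8 in the libraries labelled with LPS, 198, 0.619 and 273 in those labelled without, and 0.181, 0.218 and 0.285 in chow libraries. Rsad2 had 0.209, 0.636 and 125 in the libraries labelled with LPS, 501, 1.04 and 569 in those labelled without, and 0.250, 0.462 and 0.312 in chow libraries. In each of these, the same 3 libraries were high, namely replicate 3 labelled with LPS and replicates 1 and 3 labelled without.

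The other members showed that pattern with smaller or larger gaps. Usp18 had 1.38, 1.62 and 184 in libraries labelled with LPS, 488, 2.09 and 534 in those labelled without, and 2.66, 2.53 and 1.86 in chow libraries. Herc6 had 3.33, 2.59 and 43.1 in libraries labelled with LPS, 85.7, 4.03 and 115 in those labelled without, and 4.34, 3.17 and 4.69 in chow libraries. Mx2 had 0.310, 0.178 and 29.5 in libraries labelled with LPS, 74.1, 0.373 and 91.6 in those labelled without, and 0.539, 0.432 and 0.411 in chow libraries. The library labelled with LPS replicate 3 was the lowest of the 3 high libraries in these 3 genes and in Isg15, Mx1 and Rsad2. The same held for Uba7, Ube2l6 and Bst2 below.

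Ifi44 differed in that order, with 0.0258, 0.0505 and 27.6 in libraries labelled with LPS, 24.2, 0.0631 and 33.8 in those labelled without, and 0.0319, 0.0453 and 0.0282 in chow libraries. Uba7 had 11.2, 11.2 and 68.7 in libraries labelled with LPS, 98.2, 10.2 and 97.4 in those labelled without, and 12.6, 11.4 and 12.7 in chow libraries. Ube2l6 had 11.2, 12.2 and 65.2 in libraries labelled with LPS, 94.3, 9.74 and 76.3 in those labelled without, and 11.5, 10.2 and 9.89 in chow libraries. Bst2 had 199, 196 and 1236 in libraries labelled with LPS, 1816, 328 and 1872 in those labelled without, and 304, 345 and 325 in chow libraries. Of the low Western diet libraries, the 2 labelled with LPS lay below every chow library for Isg15, Usp18, Mx1, Mx2, Uba7 and Bst2. The gap was small for Mx1 and Uba7. The low library labelled without LPS lay among the chow libraries for Isg15, Usp18, Herc6 and Bst2. It lay below them for Mx2, Ube2l6 and Uba7 and above them for Rsad2, Mx1 and Ifi44. Values of Mx1, Mx2 and Ifi44 in all these libraries were below 1.

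**Figure D4:**
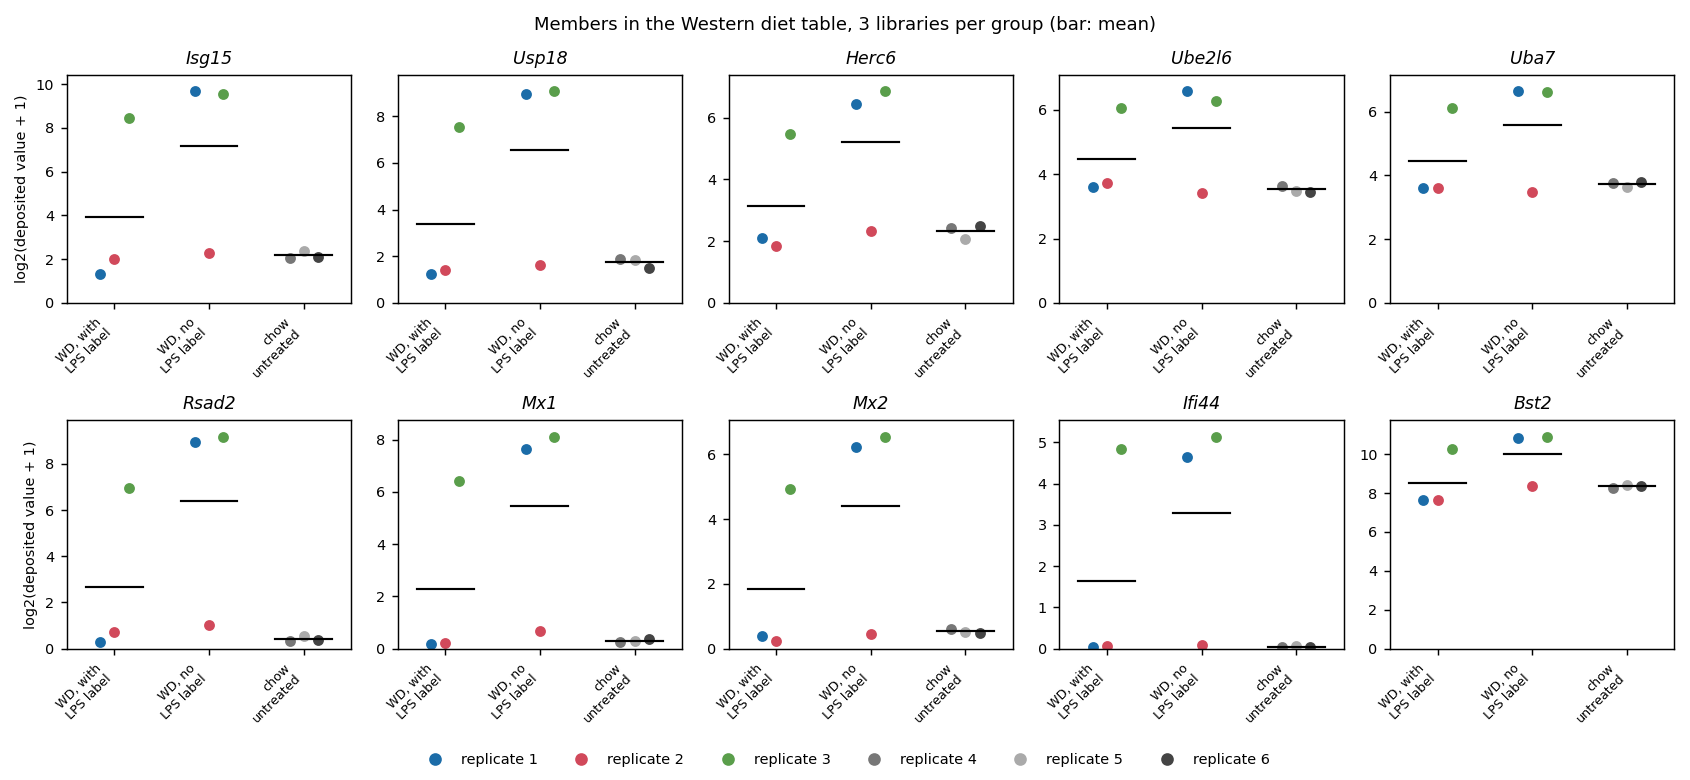
Each panel plots log2(deposited value + 1) of a member in the 9 libraries of the Western diet table, grouped by label, with 3 points per group coloured by replicate number and a bar at their mean (WD, Western diet). In all 10 panels 3 Western diet libraries are high, 1 labelled with LPS and 2 labelled without, and the other 3 lie near the chow libraries.

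By label, no comparison in this table called a member. For libraries labelled with LPS against those labelled without, 0 of 10 passed with limma, against 0.958% of all genes called, 0 had an unadjusted p under 0.05 (17.2% of all genes did), and the changes ran from -3.73 to -0.96. Set against chow, libraries labelled Western diet without LPS had 0 calls, against 0.232% of all genes called, and 2 members (Rsad2 and Mx1) had an unadjusted p under 0.05, as did 27.3% of all genes. Those labelled with LPS also had 0 calls against chow, where 1.39% of all genes were called, and 0 members had an unadjusted p under 0.05, against 12.6% of all genes. Standard errors here reached 2.41 for Rsad2, set by the split inside each Western diet group.

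Leaving out the 4 libraries that go against their label leaves 1 library in each Western diet group, assumed to vary like the chow libraries. The members' changes then ran from 1.91 (Bst2) to 6.16 (Isg15) for the library labelled with LPS against the one labelled without. Against chow they ran from 1.93 (Bst2) to 6.55 (Rsad2) in the library labelled with LPS. In the one labelled Western diet without LPS they ran from -0.24 (Uba7) to 0.61 (Rsad2). The libraries kept were those whose LPS response fits their label, and LPS raised all 10 members in chow cells. High values in the one and low values in the other therefore follow from that choice, and these sizes test nothing. Macrophage marker sums in the table were 10300, 11600 and 9440 in libraries labelled with LPS, 7500, 15400 and 5790 in those labelled without, and 12000, 10200 and 10900 in chow libraries, lowest in the 2 libraries with the highest Isg15. The sum is mostly Lyz2, at 4653 and 3335 in those 2 libraries and 9826, 8109 and 8949 in chow libraries. Cd68, Csf1r and Mertk were also below every chow library in both. Adgre1 (1203 and 897), Fcgr1 (362 and 350) and Itgam (542 and 497) were above every chow library (highest 601, 27.05 and 355.5). The part of these markers in the members' values was not tested.

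Across libraries, genes were ranked by how near their log2(value + 1), centred on its own mean, lay to the mean of the 10 members, as the root mean square difference. Values were not scaled, so the measure depends on the size of a gene's changes as well as on their pattern. Each member is also part of the mean. In the fatty acid table (12 libraries) the closest non-members were Phf11d at 0.0669, Il1rn at 0.173, Ifit3 at 0.193, Ifitm3 at 0.230 and H2-Q8 at 0.232, beside a median of 2.10 over all genes. Among members, Ifi44 (0.107) and Mx2 (0.124) lay closest to their common mean, and Isg15 (1.05) furthest. In the Western diet table (9 libraries) the closest non-members were Phf11d at 0.132, Tarm1 at 0.185, Mir6381 at 0.214, Gm43302 at 0.220 and Ccl8 at 0.229, beside a median of 2.67. Mx2 (0.203) was the closest of the members and Phf11d again the nearest non-member, while Rsad2 (1.31) was the furthest member. Libraries of a group share their treatment, so this likeness is a description with no test.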

How the data were processed

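RNA of cultured mouse macrophages was sequenced in 21 libraries (7 groups of 3). The submitters' processing notes name HISAT2 (2.0.5), with Trim Galore (0.4.1), CASAVA (1.8.2) and FastQC (0.11.5), and give mm9 and mm10 as builds, with no role for either. How the deposited values were quantified, their unit and their normalization are not given in the sources used here. The fatty acid table's coordinates match GENCODE M21 (GRCm38) for 46773 of its 50645 genes. Entries with displaced cells were left out (36 and 35).

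The deposited values are not whole counts, so limma 3.58.1 with a mean-variance trend (R 4.3.3) was run on log2(value + 1), within a table only, over all its libraries. Kept genes reached 1 in at least 3 libraries (10476 and 10331), and p-values were adjusted by Benjamini-Hochberg over these. The fit was tested on simulated data. Ratios were tested by exact permutation (scipy 1.17.1). Python 3.11.15, pandas 2.3.3 and matplotlib 3.10.9 were used otherwise. The members, gene lists and tests were chosen with earlier results of these data known. Named genes were all members, at most 3 genes of each antiviral and signalling list by smallest adjusted p, the 5 nearest non-members in each table, and Ccl5. Cmpk2, Ifnb1, the cell type markers named and the transcripts that overlap members lie outside this rule and were named after their values were seen. Some genes that the lists count are not reported here by name.

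Alternatives were no filter, a minimum of 5, a pseudocount of 0.1, the 6 libraries compared alone, median-ratio scaling, each library left out, a replicate block and the 4 doubted libraries left out.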

Additional observations from a re-analysis of the deposited data

How the results depend on the processing

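The 10 calls for LPS, and for both pretreated groups against untreated cells, held under every alternative run. For fatty acid before LPS, 7 calls became 4 with no filter, 4 when the fit held only the 6 libraries compared, and 4 to 8 with each library left out. A pseudocount of 0.1 left 6, without Usp18 (adjusted p = 0.0591). For TAK242 against fatty acid, 4 were lower with only the 6 libraries compared, and 0 were called with any library left out. For TAK242 against LPS alone the count was 0 to 5 with a library left out. For libraries labelled Western diet without LPS, set against chow, it was 0 to 10, with 10 higher when replicate 2 labelled without LPS was left out. For Western diet with against without LPS by label it was 0 to 8, with 8 lower when the same library was left out. Without the 4 libraries that go against their label, a single library is left in each Western diet group, so no calls are given. The members' changes in that comparison then turned round from below 0 to 6.16 (Isg15), 5.91 (Usp18), 3.13 (Herc6), 2.62 (Ube2l6), 2.64 (Uba7), 5.94 (Rsad2), 5.74 (Mx1), 4.47 (Mx2), 4.75 (Ifi44) and 1.91 (Bst2), with fewer and other libraries by construction. The libraries kept were chosen by their LPS response, so this turn tests nothing. The causes of the other shifts were not tested.

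Calls over all genes moved more. For TAK242 against fatty acid they numbered 491, and 276 with no filter, 1110 with the 6 libraries, 770 after median-ratio scaling and 63 to 305 with a library left out. For TAK242 against LPS alone they numbered 617, and 88, 2, 1010 and 1 to 1784 under the same settings. For LPS, 6463 became 4303 at a minimum of 5, where fewer genes are tested. In the Western diet table, 24 calls for the label without LPS against chow became 8 to 5838 with a library left out, 99 calls between the labels became 18 to 4086, and 144 calls for the label with LPS against chow became 34 to 279. Those 24 were also 41 with no filter and 12 at a minimum of 5, the 99 were 58 at that minimum, 2 with the 6 libraries, 206 after scaling and 0 with the block, and the 144 were 79, 416 and 217 at the minimum, with the 6 libraries and after scaling. Without the 4 doubted libraries a single library is left in each Western diet group, so no calls are counted.

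Median-ratio scaling moved the median of all genes for LPS from -0.31 to 0.01 and the share of calls that were higher from 22.3% to 50.2%, and left the members' counts at 10, 7 and 0. That share moved from 68.7% to 44.8% for TAK242 against LPS alone, from 25.3% to 48.4% for fatty acid and from 24.4% to 49.2% for TAK242 against untreated cells. With the replicate number as a block, 7 members were called for fatty acid before LPS and 10 for LPS, and no member's call changed in the fatty acid table. Same-numbered samples did not deviate together (correlations from -0.081 to 0.2 in the fatty acid table), so the numbers were not taken as pairs. In the Western diet table the block fit called 0, and no paired analysis was possible against chow because the groups share no numbers. Read depth is unknown, so no limit of detection is given.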
